A study of Arabidopsis thaliana with 12 samples.

Results

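The response to 2'cADPR that was left in Arabidopsis thaliana leaves without PAD4 was measured by comparing 3 RNA-seq libraries of pad4 rosette leaves given 2'cADPR with 3 libraries of pad4 rosette leaves given water. These are the 6 of the 12 libraries in the series whose titles carry pad4 as genotype. The other 6 come from wild type of the accession Col-0, 3 after 2'cADPR and 3 after water, and serve here for comparison. All 4 groups share the tissue and the library chemistry, and the pad4 controls carry the same knockout as the treated pad4 leaves. The comparison bears on whether 2'cADPR acts through the immune module of EDS1, PAD4 and ADR1. Not given in the sources used here are the knockout allele, the dose, the age of the leaves and how long after treatment they were taken. Nor is it stated that the 3 libraries of a group came from separate plants, so every p-value measures the spread between these libraries, which may be technical.

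The compound 2'cADPR is a cyclic form of ADP-ribose that TIR domains, the enzymatic ends of one class of plant immune receptors, make from NAD. Small nucleotides of TIR enzymes bind the lipase-like protein EDS1 together with PAD4 or SAG101, and the EDS1-PAD4 pair then works with helper receptors of the ADR1 family to raise salicylic acid and defence transcripts. Jasmonate is the other large defence hormone of leaves. It is made from chloroplast fatty acids by lipoxygenases, AOS, AOC and OPR3, is sensed by COI1, and acts through removal of the JAZ repressors, which frees MYC2 and its relatives. Jasmonate outputs fall into a MYC branch, with wound genes such as VSP2, and an ERF branch, with defensins such as PDF1.2, and salicylic acid and jasmonate outputs often oppose each other.

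PAD4 itself, at chr3:19431095-19434450 on the + strand (TAIR10), checked the labels. It had 2.52 to 5.51 CPM (read counts of the gene scaled to a common library size, so that libraries can be compared) in the 6 pad4 libraries, from 114 to 237 counts, and 63.9 to 590 CPM in the 6 wild type libraries. The log2 difference was -5.60 (exact permutation test over 924 splits, 2-sided, p = 0.00216). Within pad4 its level did not differ by treatment beyond the spread, with a log2 change of -0.17 ± 0.24 (SE). Photosynthesis genes, which mark green leaf tissue, had a median level of 3024 CPM over the 6 pad4 libraries, whereas the 3 root markers in the table summed to at most 0.0460 CPM in any pad4 library.

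The pad4 libraries held 42104534 to 43552886 counts, and 19652 of the 24228 listed genes passed the filter on low counts. Spearman correlations across genes, which are not independent replicates, were 0.993 to 0.995 between treated and water libraries of pad4. Within each of the 2 pad4 groups they were 0.993 to 0.996, so libraries of different treatment were about as alike as libraries of the same treatment. In wild type the correlation between treated and water libraries was 0.892 to 0.926. Each pad4 water library lay at an extreme of 1 principal component of the 6 pad4 libraries. On the first, with 24.0% of the variance, water library 2 lay at 43.1 and the other 5 between -16.3 and 1.04. On the second (22.5%) water library 1 lay at -35.8 and the others between -12.1 and 21.1. On the third (19.6%) water library 3 lay at -31.5 and the others between -10.1 and 25.6. Values without water library 2, and without some others that moved a gene group, are given beside the larger gene groups below.

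Across all genes the pad4 leaves showed 1 called transcript after 2'cADPR. The farnesoic acid methyltransferase gene FAMT rose about 2.07-fold, and no gene fell at a Benjamini-Hochberg adjusted p under 0.05 in edgeR's quasi-likelihood test. That is 0.00509% of 19652 genes called, against 69.2% called in wild type by the same fit. Of all tested genes, 992 (5.05%) had an unadjusted edgeR p under 0.05, 557 of them higher and 435 lower. Without pad4 water library 2 these were 578 higher and 211 lower. The test of the difference between the responses, the genotype by treatment interaction, called 57.6% of the genes. The median log2 change over all genes in pad4 was -0.0036.

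FAMT (AT3G44860, chr3:16379571-16381434, + strand, TAIR10) is a member of the plant carboxyl methyltransferase family that also holds the jasmonate and salicylate methyltransferases, and it encodes an enzyme that methylates farnesoic acid. Its level was 14.1, 12.4 and 16.4 CPM in the water libraries of pad4 and 32.0, 24.7 and 32.6 CPM in the 2'cADPR libraries. All 3 treated libraries lay above all 3 water libraries. The log2 change was 1.05 ± 0.11 (SE), with a 95% interval of 0.82 to 1.29 and an adjusted p of 0.00289 in edgeR. In wild type the level went from 46.5, 43.6 and 44.4 CPM after water to 97.6, 101 and 89.6 CPM after 2'cADPR, a log2 change of 1.1. The interaction for FAMT was -0.05, with a 95% interval from -0.37 to 0.28 (adjusted p = 0.817, edgeR). After water FAMT was lower in pad4 than in wild type, at 14.3 ± 2.01 CPM (SD, n = 3) against a mean of 44.8 CPM, a log2 difference of -1.64. The neighbouring gene AT3G44850 had a log2 change of -0.10 in pad4. The 250 bases before the annotated start of FAMT are shown because it is the single called gene. They lie at chr3:16379321-16379570 (+ strand, RefSeq, TAIR10.1) and hold 1 AACGTG motif (read on the other strand, so the capitals spell CACGTT) at -147 from the start. AACGTG is one of the letter strings that MYC factors are known to bind, and 7.26% of the upstream windows of 19574 tested nuclear genes hold it on either strand.

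FAMT: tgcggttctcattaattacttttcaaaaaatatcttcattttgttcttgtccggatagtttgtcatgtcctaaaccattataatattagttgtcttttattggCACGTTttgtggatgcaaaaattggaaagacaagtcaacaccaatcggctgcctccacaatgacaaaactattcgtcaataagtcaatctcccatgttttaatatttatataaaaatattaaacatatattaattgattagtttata

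**Figure D1:**
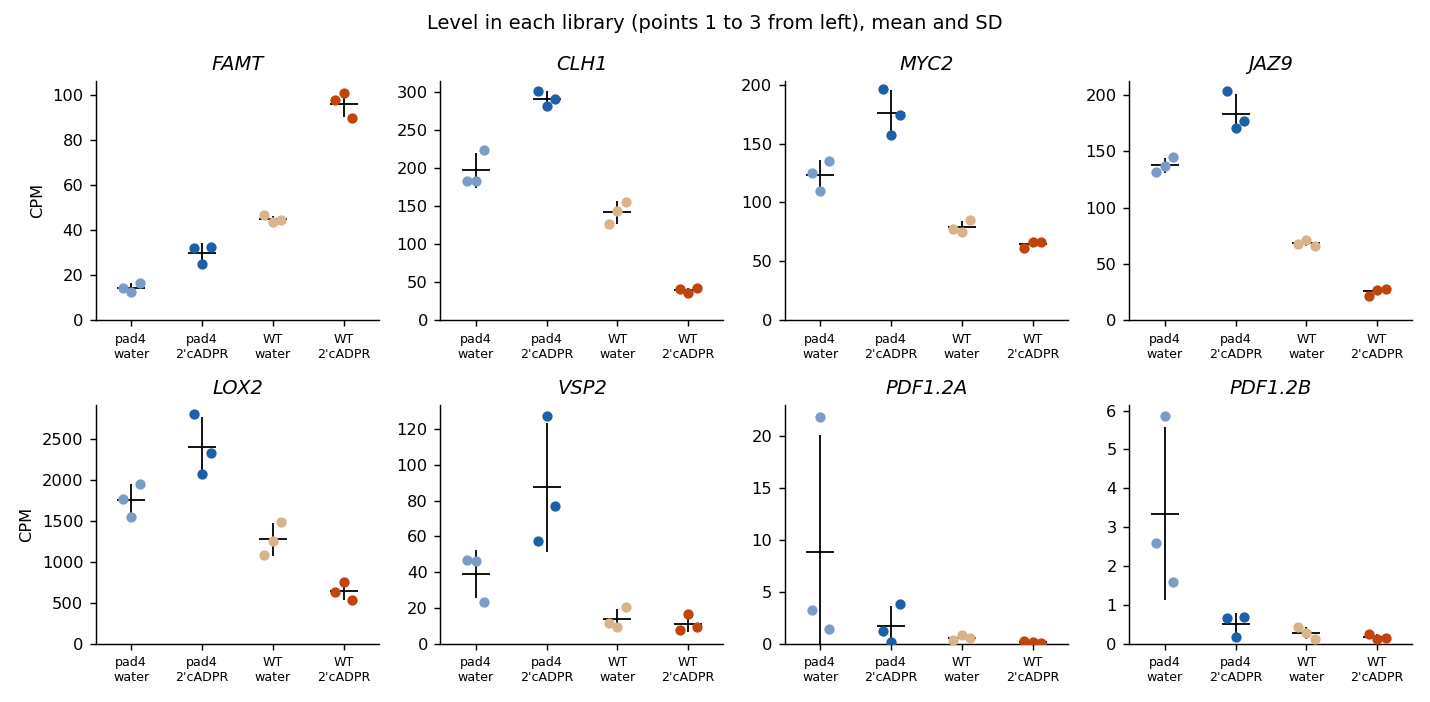
Levels in CPM (linear axes from 0) of 8 genes in each of the 12 libraries; points are libraries 1 to 3 of a group from left to right, the horizontal bar is the mean and the vertical bar the SD (cut at 0 for PDF1.2A). FAMT lay higher after 2'cADPR in pad4 and in wild type, while CLH1, MYC2, JAZ9 and LOX2 lay higher after 2'cADPR in pad4 and lower in wild type.

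The 10 higher genes with the smallest edgeR p, of which FAMT alone passed the adjusted threshold, included 5 of the jasmonate lists, namely CLH1, OPCL1, MYC2, JAZ9 and JAZ6. These 10 were taken from named genes that reached 5 CPM in one of the pad4 groups and whose treated and water libraries did not overlap, a pattern that 5.58% of all tested genes showed in the higher direction and 7.39% in the lower. The other 5 were FAMT and A/N-InvC (a neutral invertase, which splits sucrose), TSA1 (a protein of endoplasmic reticulum bodies), ABCG19 (a transporter) and VHA-E3 (a subunit of the vacuolar proton pump). A/N-InvC was at 58.3, 56.4 and 56.1 CPM after water and 74.8, 69.1 and 71.5 CPM after 2'cADPR, a log2 change of 0.33 ± 0.06 (SE) with an adjusted p of 0.208. Its treated libraries lay tightly above its water libraries, and in wild type its log2 change was 0.35. TSA1 had a log2 change of 0.73 in pad4 and -1.5 in wild type, and ABCG19 had 0.55 and 0.71.

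The 10 lower genes with the smallest p, chosen the same way, had edgeR adjusted p-values from 0.486 up. They were ARR4 (a cytokinin response regulator), GASA1 (a gibberellin-regulated peptide), RECA1, PUB26, CAT2 (the main leaf catalase), COPT6 (a copper transporter) and the chloroplast-encoded rbcL, psbA, psbC and psbB, which encode the Rubisco large subunit and photosystem II proteins. ARR4 was at 159, 153 and 156 CPM after water and 134, 119 and 124 CPM after 2'cADPR, a log2 change of -0.31 in pad4 and -0.29 in wild type. The 2 ARR4 groups were well apart relative to their spread. For GASA1 and the 4 chloroplast-encoded genes, water library 2 was the highest of all pad4 libraries. Without it GASA1 went from -0.48 to -0.31, rbcL from -0.80 to -0.54, psbA from -0.92 to -0.54, psbC from -0.92 to -0.50 and psbB from -0.56 to -0.34.

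DESeq2, run on the same counts, called 33 genes in pad4 (0.168% of those tested), 29 higher (0.148%) and 4 lower (0.0204%). The libraries of the 2 groups did not overlap in any of the 33, as in 13.0% of all tested genes. The 33 were picked by p on these same libraries, so this is no separate support for them. Of these calls 7 were higher jasmonate genes (CLH1, OPCL1, MYC2, JAZ9, JAZ6, JAZ2 and OPR3) and 1 was a lower one (PDF1.2B). Apart from FAMT, these 33 had edgeR adjusted p-values of 0.208 to 0.572 in the fit of all 12 libraries. In edgeR fits that left out 1 library, CLH1, AT1G14250, NSP1 and TBL26 were also called. NSP1 and TBL26 had overlapping groups and edgeR adjusted p-values of 0.974 and 0.867 in the fit of all 12 libraries. limma-voom called FAMT alone.

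The jasmonate genes as a group sat above the bulk of the transcriptome in pad4 after 2'cADPR, by a small amount. The 6 jasmonate lists hold 73 genes, of which 71 were in the table and 66 were tested. Their median log2 change was 0.27, against -0.0036 for all tested genes, and 52 of 66 were above 0, against 48.5% of all genes. None was called by edgeR in the fit of all 12 libraries, while CLH1 was called without wild type water library 1 (adjusted p = 0.0466) and without pad4 water library 3 (0.0404). At an unadjusted p under 0.05, 23 were higher and 4 lower, against 2.83% and 2.21% of all tested genes. Libraries did not overlap in 22 higher and 2 lower members, against 5.58% and 7.39% of all tested genes. Set against the mean of the water libraries, the median over the jasmonate genes was 0.37, 0.16 and 0.21 on the log2 scale in treated libraries 1, 2 and 3. It was 0.06, -0.09 and -0.02 in the water libraries, so all treated libraries lay above all water libraries. The median ran from 0.18 without treated library 1 to 0.34 without water library 1, and was 0.21 without water library 2. The number of higher members ran from 17 of 68 without water library 2 to 34 of 68 without water library 1. In the fits without single pad4 libraries, 2.18% to 3.30% of all tested genes were higher and 1.07% to 2.46% lower.

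**Figure D2:**
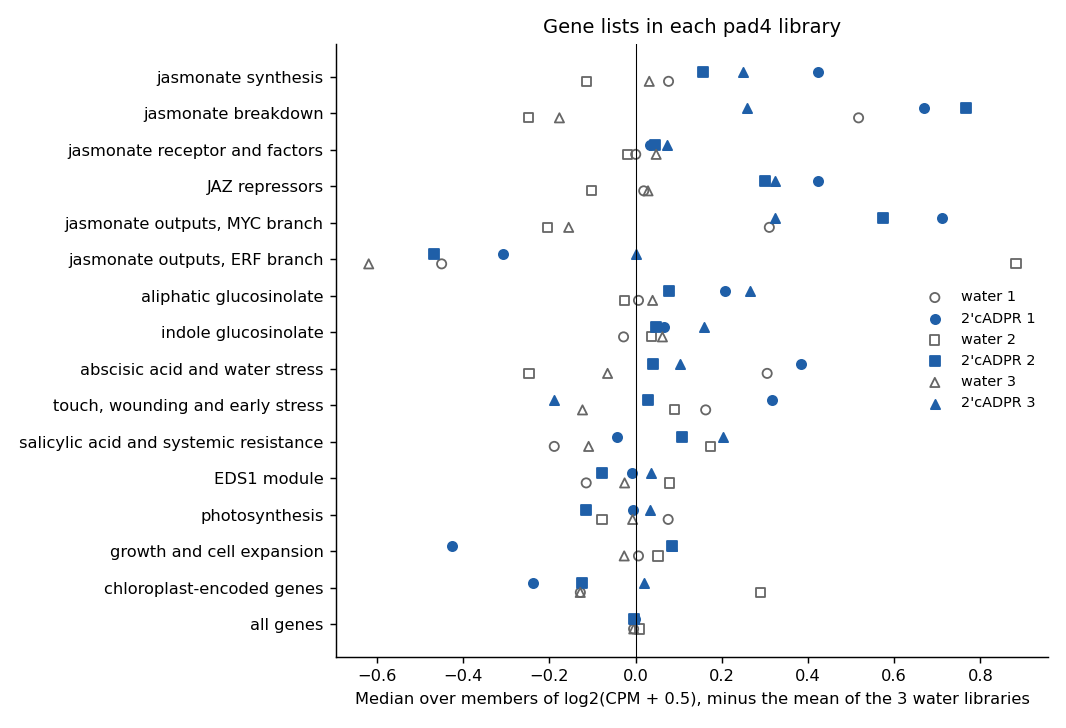
Median over the members of 15 gene lists and over all tested genes of log2(CPM + 0.5) in each of the 6 pad4 libraries, as a difference from the mean of the 3 water libraries; open symbols are water, filled symbols 2'cADPR, and the symbol shape gives the library number. Treated libraries lay right of all water libraries for jasmonate synthesis and the JAZ repressors, while water library 2 stood alone to the right for the ERF branch and the chloroplast-encoded genes.

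Genes of jasmonate synthesis had a median log2 change of 0.27 over 16 tested members. At an unadjusted p under 0.05, 7 were higher and 0 lower, against 2.83% and 2.21% of all tested genes. The median was 0.17 with 5 higher without treated library 1, and 0.18 with 4 higher without water library 2. LOX2, the chloroplast lipoxygenase that starts the pathway, was at 1761, 1547 and 1944 CPM after water and 2798, 2064 and 2323 CPM after 2'cADPR. The lowest treated library was just above the highest water library, and the log2 change was 0.45 ± 0.15 (SE, edgeR adjusted p = 0.851). OPR3, the reductase of the peroxisomal step, was at 97.2, 80.8 and 98.4 CPM after water and 117, 112 and 117 CPM after 2'cADPR, with a log2 change of 0.32 and no overlap. OPCL1, the ligase that prepares the product of OPR3 for side-chain shortening, was at 37.9, 38.6 and 42.2 CPM after water and 53.5, 48.5 and 57.4 CPM after 2'cADPR, also with no overlap. Its log2 change of 0.42 ± 0.07 (SE, edgeR adjusted p = 0.227) had the smallest p of the list. AOC2, an allene oxide cyclase, had 0.29, and its reads may be shared with the similar copies AOC1 and AOC3. KAT2, ACX5 and LOX3 had changes from -0.03 to -0.01, so not every enzyme of the pathway was higher.

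Genes that break down jasmonate or its active isoleucine conjugate had a median of 0.58 over 9 tested members, all 9 above 0. At an unadjusted p under 0.05, 5 were higher, against 2.83% of all tested genes. The median was 0.28 with 3 higher without water library 2, 0.84 with 8 higher without water library 1, and 0.45 with 3 higher without treated library 2. ILL6, which cleaves the conjugate, was at 18.6, 13.5 and 16.6 CPM after water and 29.3, 25.3 and 22.3 CPM after 2'cADPR. The groups did not overlap and the log2 change was 0.66 ± 0.18 (SE, edgeR adjusted p = 0.652). CYP94C1, an oxidase of the conjugate, had 0.65 at 2.0 to 4.84 CPM, and the sulfotransferase ST2A had 1.01, where treated library 2 at 23.4 CPM stood above the other 2 treated libraries at 9.93 and 9.62. For AT5G05600, annotated as a 2-oxoglutarate and iron dependent oxygenase, the water libraries were at 101, 84.6 and 61.5 CPM and the treated ones at 131, 138 and 99.9 CPM, which overlap by a narrow margin.

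The receptor and transcription factor list stayed near the transcriptome as a whole, with a median of 0.06 over 11 members. At an unadjusted p under 0.05 there was 1 higher member, against 2.83% of all tested genes. That member was MYC2 (AT1G32640), the master factor of the MYC branch, at 125, 110 and 136 CPM after water and 197, 157 and 174 CPM after 2'cADPR. All treated libraries were above all water libraries, and the log2 change was 0.51 ± 0.09 (SE, edgeR adjusted p = 0.227). Its relatives MYC3 and MYC4 had 0.06 and 0.05, and the receptor gene COI1 had -0.01. NINJA, the adaptor of the JAZ proteins, had 0.10 and did not overlap. NIG1, a related factor near 1 CPM, was lower in all 3 treated libraries with -0.75, within an interval from -1.80 to 0.30.

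The JAZ repressor genes, which jasmonate signalling induces in a feedback loop, had a median of 0.36 over 13 members, 12 of them above 0. At an unadjusted p under 0.05, 5 were higher, against 2.83% of all tested genes. Without water library 2 the median was 0.22, with 4 higher. JAZ9 was at 131, 137 and 145 CPM after water and 204, 170 and 177 CPM after 2'cADPR. JAZ6 was at 41.5, 41.5 and 44.1 CPM and then 56.9, 52.3 and 54.4 CPM. JAZ2 was at 27.8, 28.3 and 32.8 CPM and then 42.7, 36.8 and 37.1 CPM. In all 3 genes the groups were clear of each other, with log2 changes of 0.42, 0.36 and 0.39 and edgeR adjusted p-values of 0.419, 0.449 and 0.449. JAZ12 had 0.23 and JAZ5 0.66. JAZ1 and JAZ10, which respond early to jasmonate, had 0.33 and 0.48, but water library 1 was above 2 of the 3 treated libraries for JAZ1 and above all 3 for JAZ10. In summed level the 13 JAZ genes held 365 to 392 CPM in the water libraries and 446 to 509 CPM in the treated libraries.

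Outputs of the MYC branch had a median of 0.51 over 8 tested members, all above 0. At an unadjusted p under 0.05, 5 were higher, against 2.83% of all tested genes. The median was 0.95 with 8 of 9 higher without water library 1, and 0.42 with 3 of 9 higher without water library 2. CLH1 (AT1G19670), a chlorophyllase known as a jasmonate-induced gene, was at 183, 183 and 224 CPM after water and 301, 282 and 290 CPM after 2'cADPR. The groups were far apart, with a log2 change of 0.56 ± 0.09 (SE) and, at 0.208, the smallest edgeR adjusted p of any jasmonate gene. VSP2, a vegetative storage protein and wound marker, was at 46.8, 46.5 and 23.4 CPM after water and 57.6, 128 and 77.2 CPM after 2'cADPR, with a log2 change of 1.17 ± 0.34 (SE, edgeR adjusted p = 0.745). The spread within each group of VSP2 was wide, and the groups were separate by a small gap. VSP1, a close copy with which VSP2 may share reads, had 0.90. The aminotransferase genes TAT3 and CORI3 had 0.56 and 0.46, whereas TPS04, NATA1 and ANAC019 had 0.10, 0.09 and 0.23.

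The ERF branch differed in its values, with a median of -0.06 over 9 tested members. At an unadjusted p under 0.05, 4 were lower, all of them plant defensins, against 2.21% of all tested genes. PDF1.2B was at 2.60, 5.86 and 1.58 CPM after water and 0.654, 0.177 and 0.675 CPM after 2'cADPR, a log2 change of -2.73 ± 0.55 (SE, edgeR adjusted p = 0.381). PDF1.2A was at 3.23, 21.8 and 1.44 CPM after water and 1.2, 0.177 and 3.80 CPM after 2'cADPR, with -2.36 and overlapping groups. Water library 2 was the highest library for all 4 defensin genes, which are near-identical in part and may share reads. Without water library 2 the list's median was 0.44, with 2 members higher and 1 lower; it was 0.15 without treated library 2 and -0.87 without treated library 1. Without water library 2 the log2 change of PDF1.2C went from -3.72 to 0.01. PDF1.2A was then at -0.44 and PDF1.3 at -0.82, so the size of these lower values rests largely on that library, while PDF1.2B was still at -2.05. The other 5 lists as 1 set, 57 tested genes, had a median of 0.30 with 23 higher and 0 lower, a grouping made after the values were seen. That median was 0.19 without water library 2, with 15 of 58 higher, and 0.19 without treated library 1, with 19 of 57 higher. ORA59 and ERF1, the factors that drive the branch, had 0.29 and -0.03, the latter at no more than 0.0460 CPM in any pad4 library.

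The 250 bases before the annotated starts of MYC2, JAZ2 and PDF1.2B are shown as examples of both branches. MYC2 lies on the minus strand (window chr1:11801408-11801657), as does JAZ2 (window chr1:28150447-28150696), and PDF1.2B lies on the plus strand (window chr2:11088873-11089122). Sequences are from RefSeq TAIR10.1, given 5′ to 3′ on the gene's strand, with motif matches in capitals. MYC2 holds AACGTG (printed as CACGTT) at -115, JAZ2 holds the G-box CACGTG at -66, and PDF1.2B holds the GCC-box GCCGCC, the letters that ERF factors are known to bind, at -143.

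MYC2: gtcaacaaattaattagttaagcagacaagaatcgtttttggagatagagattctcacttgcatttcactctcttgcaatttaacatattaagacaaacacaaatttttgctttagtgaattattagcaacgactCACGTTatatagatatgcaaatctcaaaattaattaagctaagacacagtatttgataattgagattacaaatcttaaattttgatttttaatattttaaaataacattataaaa

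JAZ2: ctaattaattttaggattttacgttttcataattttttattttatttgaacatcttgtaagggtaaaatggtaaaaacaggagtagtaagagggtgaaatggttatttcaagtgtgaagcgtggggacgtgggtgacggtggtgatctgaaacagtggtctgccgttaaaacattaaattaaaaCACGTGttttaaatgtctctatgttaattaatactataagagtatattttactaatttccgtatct

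PDF1.2B: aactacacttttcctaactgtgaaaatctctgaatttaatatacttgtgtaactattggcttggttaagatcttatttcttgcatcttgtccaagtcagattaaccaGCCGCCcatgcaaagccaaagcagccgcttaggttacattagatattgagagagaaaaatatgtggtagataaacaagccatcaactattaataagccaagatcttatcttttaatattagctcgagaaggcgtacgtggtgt

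Both strands were searched, and the strings CACGTG and AACGTG differ in their first base, so 1 site cannot count for both. Of the 66 jasmonate windows 10 held CACGTG (15.2%), 13 held AACGTG (19.7%) and 3 held GCCGCC (4.55%). Over the 19574 windows of tested nuclear genes these shares were 7.18%, 7.26% and 1.97%. Of the 13 JAZ windows 5 held CACGTG and 5 held AACGTG, and all 3 GCCGCC windows belonged to the ERF branch list. CLH1, JAZ9 and VSP2 held none of the strings in this window. A match is a description of the letters only.

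In wild type the jasmonate genes moved both ways after 2'cADPR, with a median log2 change of 0.05. Of the 66, 23 were called higher, close to the share of all tested genes (34.6%). The 17 called lower were a smaller share than among all tested genes (34.6%). In pad4 the median was 0.18 for the 23 that were higher in wild type and 0.29 for the 17 that were lower, of which 13 were above 0. For all genes called lower in wild type the median pad4 change was -0.03, and 39.7% were above 0. The interaction was called higher for 20 of the 66 jasmonate genes and lower for 18. These counts are close to the shares of all tested genes, 29.4% and 28.2%, so they do not set the jasmonate genes apart. CLH1, for example, went from a mean of 142 CPM to 39.4 CPM in wild type, and its interaction was 2.41 with a 95% interval from 2.13 to 2.69 (adjusted p = 3.59e-09, edgeR). MYC2 differed by 0.80, with an interval from 0.52 to 1.08. JAZ9 differed by 1.84 and LOX2 by 1.45. For OPCL1 the interaction was -0.43, with a wild type log2 change of 0.86.

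Genes of aliphatic glucosinolate synthesis, the sulfur-rich defence compounds whose synthesis MYC factors support, had a similar small shift. Of 17 genes, all tested, 16 were above 0 with a median of 0.20. At an unadjusted p under 0.05, 6 were higher and 0 lower, against 2.83% and 2.21% of all tested genes. Libraries did not overlap in 10, all higher, a pattern that 5.58% of all tested genes showed, and none was called. The number higher was 2 without water library 1 or treated library 3, 3 without water library 2 or treated library 1, 4 without water library 3, and 11 in a fit of the 6 pad4 libraries alone. BCAT4, the aminotransferase of the first step, was at 136, 126 and 143 CPM after water and 179, 154 and 209 CPM after 2'cADPR, with a log2 change of 0.42. The groups did not overlap, whereas in wild type BCAT4 fell by 3.55 on the log2 scale. In wild type 15 of the 17 were called lower, against 34.6% of all tested genes, and the median was -3.03. The interaction called the same number higher, against 29.4% of all tested genes. The regulator MYB28 had 0.06 in pad4 and MYB29 0.23. TGG1 and TGG2, which mark the myrosin cells that store glucosinolate-cleaving enzymes, summed to 1743 to 2412 CPM in the water libraries and 2017 to 3717 CPM in the treated libraries, with the highest sum in treated library 2. Their part in the shift was not tested. In bulk leaf RNA, fewer cells of a type and less RNA per cell cannot be told apart.

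Abscisic acid and water stress genes, 22 tested, had a median of 0.18 with 3 higher and 1 lower at an unadjusted p under 0.05. Over all tested genes 2.83% were higher and 2.21% lower. Without water library 2 the median was 0.03 with 0 higher and 1 lower, and without water library 1 it was 0.37 with 13 higher. Without treated library 1 it was 0.07 with 1 higher and 2 lower, and without treated library 2 it was 0.23 with 6 higher. Without water library 3 it was 0.13 with 1 higher and 1 lower, so this list followed which library was left out. Touch, wounding and early stress genes had a median of 0.05 over 16 tested members, with 1 higher (WRKY40, 0.54) and 0 lower, and of -0.08 without treated library 1. Indole glucosinolate genes had 0.11 over 7 with no member at an unadjusted p under 0.05, ethylene genes 0.00 over 10 and clock genes 0.03 over 16.

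The chloroplast-encoded genes, a list added after the values were seen, went the other way in the fit of all 12 libraries. Of 80 listed, 63 were tested, with a median of -0.19. At an unadjusted p under 0.05, 1 was higher and 11 lower, against 2.83% and 2.21% of all tested genes. Libraries did not overlap in 1 higher and 13 lower members, against 5.58% and 7.39% of all tested genes. psbA was at 96.0, 169 and 83.7 CPM after water and 61.0, 56.4 and 67.2 CPM after 2'cADPR. Treated libraries lay below water libraries, and water library 2 was far above all others. Chloroplast reads made up 0.0535% of the counts of water library 2 and 0.0279% to 0.0347% of the other 5 pad4 libraries. Without it the median was 0.03, with 4 higher and 5 lower, while psbA was still at -0.54. In that fit 2.94% of all tested genes were higher and 1.07% lower. The list's median was -0.06 with 0 higher and 8 lower without treated library 1. Without treated library 2 it was -0.12 with 1 higher and 8 lower. Water library 2 was still in these fits, so they cannot show whether the lower values depend on it. Among the 13 members that passed a filter of 5 CPM in at least 3 libraries the median was -0.52, with 0 higher and 8 lower. That fit also held water library 2, and in it 3.03% of all tested genes were higher and 2.25% lower. Nuclear photosynthesis genes had a median of -0.03 over 21, all 21 within 1.5-fold by their 95% intervals, with RBCS2B at -0.23.

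No gene of the EDS1 and salicylic acid lists was called in pad4, where 1 of all 19652 tested genes was called. The EDS1 module, with 9 tested members, had a median log2 change of 0.0005 in pad4, with 0 members at an unadjusted p under 0.05. In wild type 8 were called higher, against 34.6% of all tested genes. Without water library 2 the median was 0.04, with 2 of 9 higher and 3 not overlapping. In that fit 2.94% of all tested genes were higher, and 2137 of 19652 did not overlap in the higher direction. EDS1 was at 20, 22.5 and 21.4 CPM after water and 18.3, 20 and 25.3 CPM after 2'cADPR, which overlap. Its log2 change was -0.01 with a 95% interval from -0.22 to 0.21, against 1.68 in wild type. SAG101 had 0.03, ADR1 -0.05, and both ADR1-L1 and ADR1-L2 0.00, with 95% intervals that lay between -0.32 and 0.23. Reads of EDS1 may be shared with the adjoining copy AT3G48080, at 0.492 to 3.45 CPM.

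Salicylic acid genes, 25 tested, had a median of 0.09. At an unadjusted p under 0.05, 2 were higher and 1 lower, against 2.83% and 2.21% of all tested genes. In wild type 24 were called higher, against 34.6% of all tested genes. Without water library 2 the median was 0.31, with 6 higher, 1 lower and 6 higher members that did not overlap. Over all tested genes in that fit, 2.94% were higher and 1.07% lower, and 2137 of 19652 did not overlap in the higher direction. Without water library 1 the median was 0.00, with 2 higher. ICS1, the enzyme that commits chorismate to salicylic acid, was at 3.47, 3.70 and 5.35 CPM after water and 4.15, 4.58 and 4.38 CPM after 2'cADPR. These overlap, and the log2 change was 0.07 with a 95% interval from -0.24 to 0.38, against 3.90 in wild type. DMR6, a salicylic acid hydroxylase, had 0.40 and overlapping groups. FMO1, which makes the mobile signal N-hydroxypipecolic acid, had 1, 8 and 4 counts in the water libraries and 0 in each treated library, where a count of 0 allows up to 3. In the treated wild type libraries it had 2094, 2255 and 2035 counts. PR1 had 8, 0 and 0 counts after water and 0, 4 and 2 after 2'cADPR, too few to compare.

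Over the 6002 genes that 2'cADPR changed at least 2-fold in wild type (adjusted p under 0.05, 30.5% of tested genes), the pad4 change was near 0. Among the 2510 that rose in wild type the median log2 change was 0.05 in pad4 and 1.67 in wild type. Among the 3492 that fell it was -0.03 and -1.69. A least-squares line through 0 of the pad4 change on the wild type change had a slope of 0.0117, and Pearson's r across these genes was 0.0616. The 2 comparisons share no library, but genes are not independent. Computed for each treated library against the mean of the water libraries, the slope was 0.0129, 0.0135 and -0.0029, so the small slope did not have 1 sign in all 3. It was 0.0335 without water library 2, 0.00184 without treated library 1 and 0.00016 without treated library 2. The pad4 change had the sign of the wild type change in 3543 genes (59.0%).

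**Figure D3:**
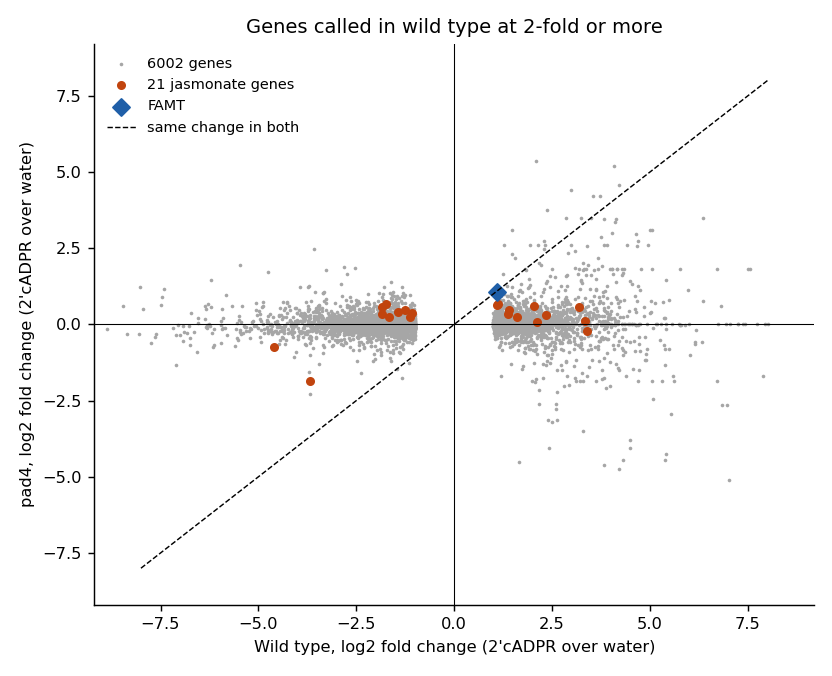
Log2 fold change after 2'cADPR in pad4 (vertical axis) against that in wild type (horizontal axis) for the 6002 genes called in wild type at 2-fold or more; orange points are the 21 jasmonate genes among them, the blue diamond is FAMT, and the dashed line marks equal change. The cloud lay along 0 on the pad4 axis with a slope of 0.0117, FAMT lay near the dashed line, and points far from 0 on the pad4 axis were mostly genes with few reads in pad4.

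Of these 6002 genes, 275 (4.58%) had a pad4 95% interval that excluded 0 in the wild type direction, and 128 (2.13%) one that excluded 0 in the opposite direction. Among those with a gene symbol, the 5 with the smallest p in the wild type direction were FAMT, MEB2, SUMO3, RLP33 and GASA1. RLP33, a receptor-like protein, was at 18.3, 18.7 and 19.0 CPM after water and 22.2, 25.1 and 23.9 CPM after 2'cADPR. The groups were apart, with a log2 change of 0.35 against 1.13 in wild type (edgeR adjusted p = 0.470). MEB2, an iron transporter family member, had 1.13 in pad4 and 1.11 in wild type at 0.850 to 2.44 CPM in pad4. GASA1 had -0.48 against -1.31.

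For the strongest wild type responders the pad4 libraries held either few reads or a small change. WRKY59 had 0 counts in all 6 pad4 libraries, ALD1 had 2 counts in all, and ARD3 had at most 5 in a library, whereas ARD3 had 22030 to 28533 counts in the treated wild type libraries. XTH10, a cell wall enzyme, had a log2 change of 0.60 in pad4, with an interval from -0.51 to 1.71, against 6.82 in wild type. XTH31 was at 101, 84.9 and 107 CPM after water and 85.7, 62.7 and 68.3 CPM after 2'cADPR, with the groups just overlapping and a log2 change of -0.44 against -6.76 in wild type. GASA6, BZIP34, HAT1 and PDLP3 had -0.27, -0.28, -0.19 and -0.28 in pad4, against wild type changes of -6.83, -6.18, -5.48 and -5.40. Growth and cell expansion genes as a list, 14 tested, had a median of 0.01 in pad4 and -2.77 in wild type. In pad4 0 were higher and 2 lower at an unadjusted p under 0.05, against 2.83% and 2.21% of all tested genes. They summed to 1078 to 1113 CPM in the pad4 water libraries and 773 to 1049 CPM in the treated ones. The pad4 median was 0.07 without treated library 1, -0.18 without treated library 2 and -0.08 without treated library 3.

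How small a change the 3 against 3 design could exclude depended on the level of the gene. The median SE of a log2 change was 0.117, and the 95% interval reached a median of 0.251 to each side, or 1.19-fold. The interval lay within 2-fold in both directions for 16268 genes (82.8%) and within 1.5-fold for 13889 (70.7%). Above 20 CPM nearly every gene was bounded: 99.6% of the 6440 genes from 20 to 100 CPM and 99.8% of the 1766 genes above 100 CPM lay within 2-fold, and 98.0% and 97.7% within 1.5-fold. From 5 to 20 CPM 98.8% lay within 2-fold, and from 1 to 5 CPM 79.6%. Below 1 CPM only 6.33% of 2830 genes did. For the rest of them the interval reached past 2-fold or could not be given. Of all tested genes 114 had no interval, because a pad4 group held no reads of them.

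**Figure D4:**
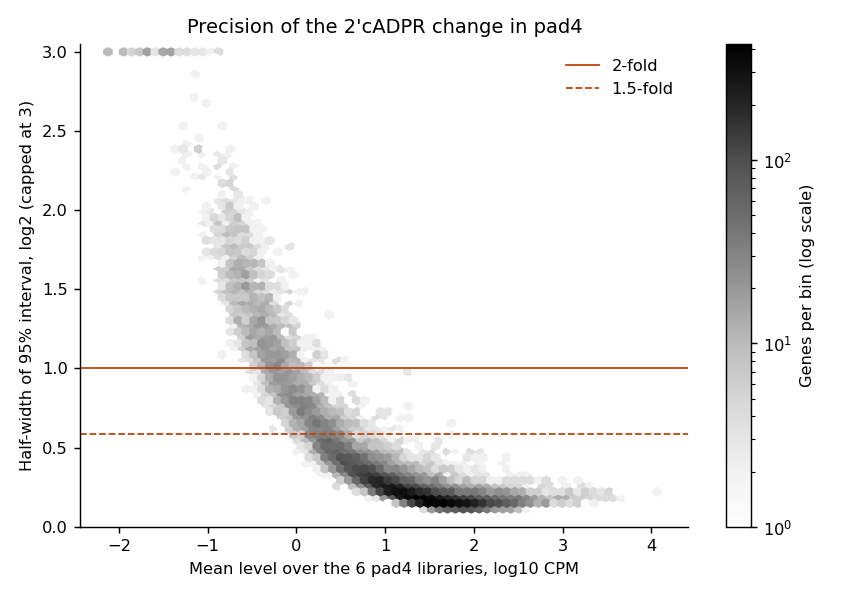
Reach of the 95% interval to one side of the log2 change after 2'cADPR in pad4 (vertical axis, log2 units, values above 3 drawn at 3) against the mean level over the 6 pad4 libraries (horizontal axis, log10 CPM); grey shade is the number of genes per bin on a log scale, and the lines mark 2-fold and 1.5-fold. Genes above 20 CPM lay mostly under the 1.5-fold line, and genes below 1 CPM mostly above the 2-fold line.

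To be called as the only changed gene in the edgeR test, a gene needed a p of 2.54e-06, and with the median precision that is a log2 change of 0.88, or 1.83-fold. The change needed was 1.49-fold above 100 CPM, 1.90-fold from 5 to 20 CPM and 22.7-fold below 1 CPM. The jasmonate changes of 1.25-fold to 1.48-fold in OPR3, JAZ2, JAZ9, OPCL1, MYC2 and CLH1 lie under those sizes. By their intervals, 39 of the 66 jasmonate genes had a change within 2-fold and 24 within 1.5-fold. The upper bound for CLH1 was 0.76 and for MYC2 0.70 on the log2 scale.

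The same intervals were also set against the wild type changes, taken as fixed values. Within 2-fold lay 75.6% of the 6002 wild type responders, against 82.8% of all tested genes. For 5691 of the 6002 wild type responders (94.8%) the pad4 interval excluded a change as large as that of wild type, and for 4992 (83.2%) it excluded even 0.5 times the wild type log2 change. The 902 genes whose interval still held 0.5 times the wild type change, or more, had a median level of 0.624 CPM in pad4, against 13.4 CPM for those where it was. The other 108 had no interval because at least 1 of the pad4 groups held no reads of them. For EDS1, ICS1 and SAG101 the upper bounds of 0.21, 0.38 and 0.23 lay well under 0.5 times their wild type changes of 1.68, 3.90 and 1.90.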

How the data were processed

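RNA-seq libraries of rosette leaves were made by the authors from TRIzol-extracted total RNA with a SMARTER mRNA-seq kit, per the labels' protocols. Reads were handled with fastp, HISAT and HTSeq on TAIR10, per the submitters' processing notes; versions and settings, including the strand of counting, were not given in the sources used here, so overlapping and antisense genes are uncertain. The deposited count table holds whole-number counts of reads per gene. The authors' deposited FPKM values divide those counts by gene length and library size, and served only to compare the implied exon lengths with the RefSeq TAIR10.1 annotation (24224 of 24228 genes equal within 1 base). Groups were taken from the sample titles.

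Tests used edgeR 4.0.16 in R 4.3.3. Genes passed filterByExpr at a minimum count of 10, TMM factors scaled the libraries, and the quasi-likelihood model held the 4 group means, fitted over all 12 libraries. Tests were 2-sided and adjusted by Benjamini-Hochberg over 19652 genes, with calls at 0.05, and the steps were tested on simulated data. CPM are counts over TMM-scaled library totals, and library medians of lists used log2(CPM + 0.5). The 95% interval of a log2 change came from the fit's standard error and its t quantile, and is not adjusted for the number of genes; it covers the spread between these libraries only, and the limit of 3 for a count of 0 covers counting error only. Gene lists (24, with 290 genes, 284 in the table) were written from general knowledge; members, lists and tests were chosen with earlier results of these data known. Lists are described by counts and medians, with no set test.

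Named genes followed a rule: PAD4 and 8 pathway genes; genes called in pad4; the 10 higher and 10 lower genes of smallest p with at least 5 CPM, a symbol and no overlap; up to 4 members of each jasmonate list and 2 of each other list by smallest p; the 5 largest rises and falls of wild type; up to 10 DESeq2 or limma-voom calls; and 5 wild type responders with a pad4 interval on the same side of 0. The wild type rises and falls, the DESeq2 or limma-voom calls and the wild type responders were also limited to genes with a symbol. Other genes named, such as MYC3, MYC4, COI1, JAZ1, JAZ10, KAT2 and AT3G44850, were chosen after their values were seen. Alternatives were DESeq2 1.42.0, limma-voom 3.58.1, RLE factors, no filter, a filter of 5 CPM in 3 libraries, a fit of the 6 pad4 libraries alone, a replicate block, and leaving out each library.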

Additional observations from a re-analysis of the deposited data

Results flagged for a closer look

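For 61 of the 93 named genes the change after 2'cADPR differed between pad4 and wild type by edgeR's interaction test, at an adjusted p under 0.05 over all tested genes. Over all tested genes the same test called 57.6%. The values are differences of log2 changes, pad4 minus wild type. A group of 8 jasmonate genes was called lower in wild type and had a log2 change above 0 in pad4, without a call there: CLH1 2.41, ILL6 2.39, JAZ9 1.84, CORI3 1.73, LOX2 1.45, JAZ6 1.43, MYC2 0.80 and AOC2 0.50. The same held outside the jasmonate lists for MYB75 (4.22), BCAT4 (3.97), SOT18 (3.58), TSA1 (2.23), LTP1 (1.64), ERF5 (1.13) and VHA-E3 (1.06). VSP2 (1.47), THI2.2 (1.04), AT5G05600 (0.63), OPR3 (0.49), JAZ2 (0.49), NINJA (0.21) and GI (0.21) differed without a call in either genotype.

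Genes called lower in wild type with a smaller negative log2 change in pad4 were GASA6 (6.56), XTH31 (6.32), BZIP34 (5.90), HAT1 (5.29), PDLP3 (5.12), NIG1 (3.86), EXPA1 (3.16), RBCS2B (2.17), AG (1.08), RCA (0.998), EIL1 (0.87), GASA1 (0.83), COPT6 (0.68), CAT2 (0.38) and PUB26 (0.35). NIG1 was at or under 1.35 CPM in all 12 libraries.

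The other 24 were called higher in wild type. The pathway genes among them were ADR1-L1 (-1.60), EDS1 (-1.69), ADR1-L2 (-1.73), SAG101 (-1.87), ADR1 (-2.04) and ICS1 (-3.84). PAD4 (-3.18) is the knocked-out gene itself. OPCL1 (-0.43) and TAT3 (-2.63) are jasmonate genes. The rest were PRR7 (-0.30), RECA1 (-0.42), LTI30 (-0.55), AT5G66900 (-0.55), EIN3 (-0.61), RLP33 (-0.78), DMR6 (-0.81), CYP83B1 (-1.01), AT5G66910 (-1.34), WRKY40 (-1.80), AT1G66090 (-2.29), LDOX (-3.89) and XTH10 (-6.22), with ALD1 (-9.59) and FMO1 (-12.1). For ALD1 and FMO1 the treated pad4 libraries held no reads, so those fitted values depend on the prior count and give no bound. With 3 libraries a group, single outlying libraries were not tested for.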

How the results depend on the processing

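FAMT was called in every fit tried, at log2 changes of 0.96 to 1.17 without single libraries. The number of genes called higher, 1 in the report, was 29 in DESeq2 (4 lower), 2 in a fit of the 6 pad4 libraries alone (FAMT and AT1G14250), and 1 to 3 without single libraries (3 without wild type water library 1 or pad4 water library 3, 2 without wild type water library 3 or pad4 water library 1). Jasmonate genes lower at an unadjusted p under 0.05, 4 in the report, were 2 in limma-voom, 0 with at least 5 CPM in 3 libraries and 1 to 4 without single libraries (1 without pad4 water library 2). The slope on the wild type change was 0.0214 with at least 5 CPM, and 0.00016 to 0.0335 without single libraries. With no fold minimum on the wild type change, 9687 of 13608 genes had a pad4 interval that excluded 0.5 times that change. Genes at an unadjusted p under 0.05 numbered 773 to 1481 over all settings, against 992.

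Whether the replicate numbers pair the libraries is not given in the labels. Same-numbered pad4 libraries had correlations of their deviations of 0.0855, -0.0278 and 0.0581. Differently numbered ones had -0.140 to 0.0815, so these values cannot settle it. With the replicate block 1 gene was called (951 at an unadjusted p under 0.05), and 2 jasmonate genes were lower. With the block in the pad4 libraries alone 7 genes were called higher (FAMT, AT1G14250, PBP1, ARGAH2 and the jasmonate genes CLH1, MYC2 and AT5G05600) and 1 jasmonate gene was lower. ADR1-L2 had -0.0017 with the block.

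Uncalled log2 changes near 0 or from few reads changed sign. EDS1 had 1.5e-05 in the pad4 libraries alone and PR1 0.44 in limma-voom. Without single libraries PAD4 ran from -0.48 to 0.18, EDS1 from -0.154 to 0.0881, SAG101 from -0.0493 to 0.0960, ADR1 from -0.203 to 0.120, ADR1-L1 from -0.0210 to 0.0370, ADR1-L2 from -0.0691 to 0.0890 and ICS1 from -0.0495 to 0.286. PR1 ran from -1.32 to 4.02, PDF1.2C from -5.49 to 0.0109, SESA1 from -0.44 to 1.89 and ARD3 from -4.04 to 1.19. The cause was not tested. Depth limits genes below 1 CPM.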
